A study of Mus musculus with 4 samples.

Results

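Gm10715, Gm10717, Gm10718, Gm10719, Gm10720, Gm10721, Gm10722, Gm10800 and Gm10801 are predicted mouse gene models made of repeat-like sequence. They were measured among 28595 genes in mouse testis sections, and all 9 were present in the count table. All 9 passed the filter on low counts over 12 libraries, but Gm10715, Gm10718 and Gm10721 did so only with the wild-type Leydig-targeted libraries, where they are high. Gm10715 and Gm10721 are therefore described with no test in every comparison. Gm10718 also passed the filter in fits of only the 6 libraries compared, which hold none of those libraries. Its tests are taken from those fits. The set was chosen by the high counts of Gm10719 and Gm10721 in wild-type Leydig-targeted libraries, so every value that involves those libraries is given as a description, with no test. The libraries came from 10 µm testis sections by photo-isolation chemistry, in which ultraviolet light frees blocked cDNA ends so that RNA is read only from the irradiated area. There were 4 kinds of library, each with 3 replicates: H3t KO sections irradiated only at Leydig cells, wild-type sections irradiated only at Leydig cells, H3t KO sections irradiated over their whole area, and wild-type sections irradiated over their whole area. H3t is a testis variant of histone H3, and the series describes the deletion as disrupting spermatogenesis. Leydig cells are the testosterone-producing cells between the seminiferous tubules. Wild-type mice are called young, while the age of the H3t KO mice, the strain and the construction of the deletion are not stated in the sources used here. Whether the 3 replicates of a group were 3 animals is not stated either, so each p-value reflects only the spread among these libraries, which may be technical.

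Mouse chromosomes carry long arrays of an AT-rich repeat, the major satellite, packed as silent pericentromeric heterochromatin beside the centromere. Pieces of such arrays that reached the assembled genome have been annotated as predicted genes by automatic pipelines, and reads from near-identical copies are hard to assign to a single locus. Satellite arrays are usually kept silent by H3K9 methylation and HP1 proteins, and transcripts from them are mostly held in the nucleus. No protein function is known for the gene models described here, and a comparison with a satellite consensus was not made.

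The 9 models lay at 2 places in GRCm38, so the set is not one row of neighbours. The first 7, on the plus strand of chromosome 9, ran over 37.4 kb at the first sequenced bases of the chromosome. In order these were Gm10722 (ENSMUSG00000091028, chr9:3000922-3002330), Gm10721 (ENSMUSG00000096519, chr9:3013140-3014344), Gm10720 (ENSMUSG00000074564, chr9:3015654-3017210), Gm10719 (ENSMUSG00000095547, chr9:3017408-3021593), Gm10718 (ENSMUSG00000095186, chr9:3023547-3025218), Gm10717 (ENSMUSG00000095891, chr9:3025417-3033289) and Gm10715 (ENSMUSG00000096201, chr9:3036877-3038316). The other pair sat within 5.1 kb of chromosome 2: Gm10801 on the plus strand (ENSMUSG00000075015, chr2:98662237-98664083) and Gm10800 on the minus strand (ENSMUSG00000075014, chr2:98666547-98667301). GENCODE vM21 lists all 9 as protein-coding, with 20 transcripts of 504 to 684 bases, 9 of them from Gm10717. Each transcript was 64.0 to 65.8% A and T.

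The first 234 bases of the longest coding exon are shown for the pair that chose the set (Gm10721 and Gm10719), for the chromosome 9 member with most counts (Gm10717) and for both chromosome 2 members. Capitals mark a stretch of 23 bases that every member carries. It was chosen as the longest run common to the sequences shown, so its presence in those members follows from the choice. The sequences are from GENCODE vM21 transcripts on GRCm38, given 5′ to 3′ on the strand of the gene: exon 2 of Gm10721 (chr9:3013210-3013443, plus), exon 3 of Gm10719 (chr9:3020786-3021019, plus), exon 1 of Gm10717 (chr9:3025417-3025650, plus), exon 4 of Gm10800 (chr2:98666807-98667040, minus) and exon 1 of Gm10801 (chr2:98662237-98662470, plus).
Gm10721: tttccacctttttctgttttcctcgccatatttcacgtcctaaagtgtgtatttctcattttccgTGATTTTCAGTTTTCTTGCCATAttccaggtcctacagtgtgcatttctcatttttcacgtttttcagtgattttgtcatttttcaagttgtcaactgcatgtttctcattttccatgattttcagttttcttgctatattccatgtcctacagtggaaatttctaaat
Gm10719: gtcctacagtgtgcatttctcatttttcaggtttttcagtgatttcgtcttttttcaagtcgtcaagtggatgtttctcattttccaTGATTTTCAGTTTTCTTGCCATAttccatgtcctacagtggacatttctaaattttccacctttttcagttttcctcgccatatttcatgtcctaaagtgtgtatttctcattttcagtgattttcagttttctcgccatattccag
Gm10717: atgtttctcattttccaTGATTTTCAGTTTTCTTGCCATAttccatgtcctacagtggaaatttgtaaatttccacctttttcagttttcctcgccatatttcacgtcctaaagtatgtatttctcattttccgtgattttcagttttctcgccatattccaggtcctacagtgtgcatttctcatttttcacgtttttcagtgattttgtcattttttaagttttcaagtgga
Gm10800: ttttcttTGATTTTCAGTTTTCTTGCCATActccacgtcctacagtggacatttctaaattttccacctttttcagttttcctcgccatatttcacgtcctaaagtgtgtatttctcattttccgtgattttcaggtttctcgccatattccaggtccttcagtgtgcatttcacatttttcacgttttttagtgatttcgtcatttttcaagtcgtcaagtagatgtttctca
Gm10801: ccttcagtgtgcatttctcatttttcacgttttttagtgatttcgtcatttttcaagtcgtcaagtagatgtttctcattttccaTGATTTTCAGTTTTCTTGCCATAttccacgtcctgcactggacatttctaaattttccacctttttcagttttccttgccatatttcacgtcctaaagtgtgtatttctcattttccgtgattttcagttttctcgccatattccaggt

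These exons resemble one another. The capital stretch was found in all 9 members and all 20 of their transcripts, and in 13 of 55450 annotated genes (0.0234%); beside the members these were Gm11168, Gm17535, Gm21738 and Gm26870. Each transcript was also slid along itself. Of the longer lags, 234 bases was chosen for the highest mean identity over these same 20 transcripts, and the sequences above were cut to that length. For each transcript the best lag within 3 bases of it was used, so high identity there follows partly from the choice. Identity there was 43.0 to 69.7%, against a median over all lags of 30.6 to 32.0%. The lag was exactly 234 bases in 16 of 20 transcripts and was among the 3 highest in 19 of 20. Gm10800 was the exception, with 43.0% at 234 bases and its highest identity, 56.3%, at 225 bases. Gm10721 had its highest identity, 67.6% of positions, at 234 bases.

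**Figure D1:**
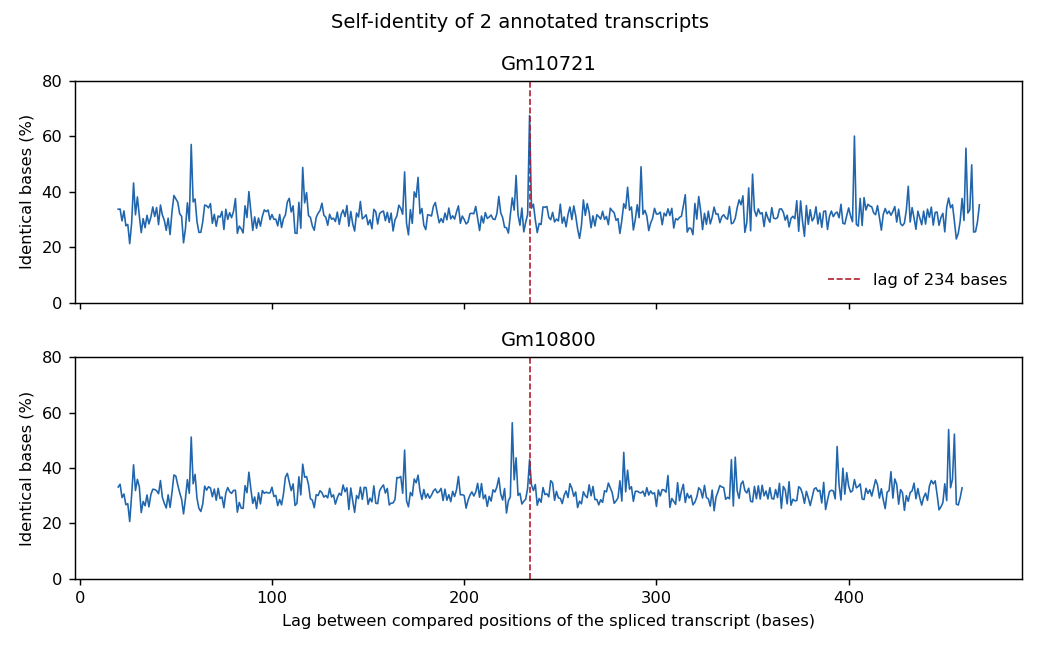
Percent of bases that match when a transcript is slid along itself (y axis) against the lag in bases (x axis), for Gm10721 and Gm10800, with a dashed line at 234 bases. Gm10721 reaches 67.6% at that lag, and Gm10800 reaches 43.0% there and 56.3% at 225 bases.

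The members also shared exact sequence with each other. Of all 50-base words in their exons, on either strand, 50.9% were found in at least one other member, and a single word was shared by up to 8 members. The closest pair was Gm10720 and Gm10719, with 73.3% of the words of Gm10720 found in Gm10719. Sharing was highest for Gm10720 (87.4%) and Gm10721 (84.3%), intermediate for Gm10718 (66.0%), Gm10719 (57.3%), Gm10722 (51.7%), Gm10715 (47.9%) and Gm10717 (40.2%), and lowest for the chromosome 2 members Gm10800 (27.2%) and Gm10801 (17.1%). The share depended on word length: it was 59.2% with 36-base words and 35.9% with 75-base words. Outside the set, 4 annotated genes shared 50-base words with a member: Gm17535 (85.7% of its words), Gm26870 (62.0%), Gm11168 (50.5%) and Gm21738 (32.0%). The handling of reads that match several places is not stated in the sources used here, so each member's count may hold reads of the others, and the split of reads between members is uncertain. Strand settings are not stated either, so reads from the opposite strand cannot be told apart.

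**Figure D2:**
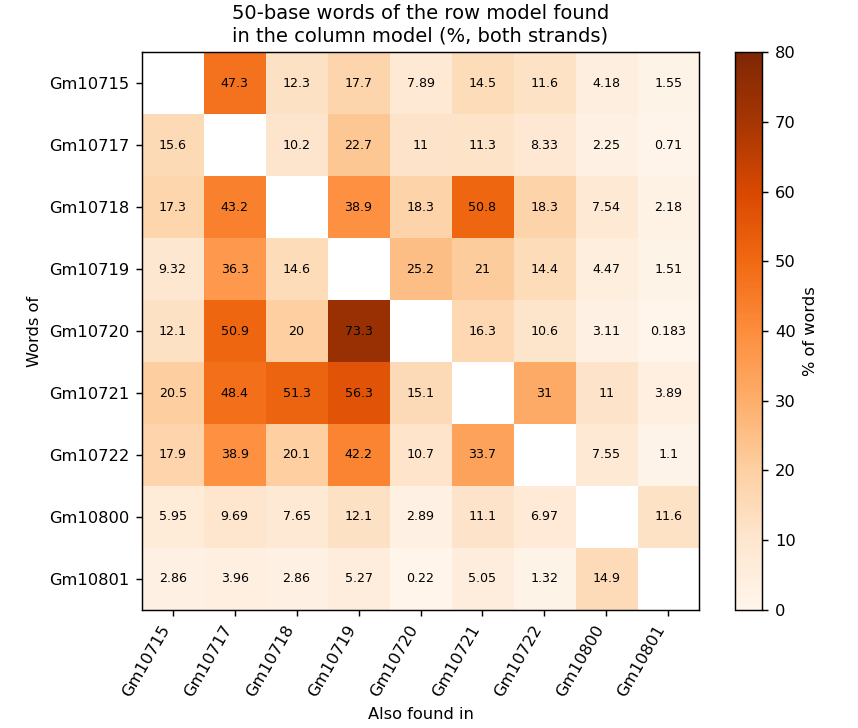
Percent of the 50-base exonic words of each member (one row per member) that occur in each other member (one column per member), written in each cell and as a colour scale. The darkest cell is Gm10720 in Gm10719 (73.3%), while Gm10800 and Gm10801 share 27.2% and 17.1% of their words with any member.

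Leydig-targeted libraries were shallow, with 15208 to 53003 counts in H3t KO and 5947 to 54882 counts in wild type, against 321771 to 475764 counts in H3t KO sections and 247539 to 566527 in wild-type sections. Wild-type Leydig-targeted replicate 3 was the smallest library and had the highest scaling factor (2.283). The targeted gene, H3f4, had 1 count in 1 wild-type section library and 0 in the other 11, so it could not check the genotype labels. Each group carries a single library name in the deposited barcode list, so pool and group cannot be told apart. Leydig markers (8 of 9 in the table, all detected in every group) held 3.29 to 4.01% of counts in H3t KO Leydig-targeted libraries and 1.6 to 2.14% in H3t KO sections, and 0.824 to 1.45% in wild-type Leydig-targeted libraries and 0.196 to 0.417% in wild-type sections. Spermatid markers (8 genes) held 1.31 to 2.59% in wild-type Leydig-targeted libraries and 2.63 to 5.06% in wild-type sections, so spermatid transcripts were also present in the wild-type Leydig-targeted libraries. They held 0 to 0.00943% in H3t KO Leydig-targeted libraries, where Crisp2, Tnp1, Tnp2, Tssk1 and Tssk2 had no count, and 0.00459 to 0.078% in H3t KO sections.

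In wild-type testes every member had a higher level in each Leydig-targeted library than in each section. Levels are in CPM, counts scaled to a fixed library total. Together the 9 members took 23720, 25920 and 53140 CPM in wild-type Leydig-targeted libraries, against 3363, 9488 and 9134 CPM in wild-type sections. That is 2.37 to 5.31% of all counts in wild-type Leydig-targeted libraries and 0.336 to 0.949% in wild-type sections. The ratio of mean summed CPM was 4.68, and it lay between 3.39 and 5.39 when each wild-type Leydig-targeted library was left out in turn. It also depends on scaling. With totals scaled by the TMM factors used in the tests, means were 25800 CPM in wild-type Leydig-targeted libraries and 11500 CPM in wild-type sections. In plain CPM they were 34300 and 7330. All 9 members had libraries that did not overlap, higher in the Leydig-targeted group, as did 7.78% of the 5182 genes that passed the filter (21.4% were lower without overlap). Because wild-type Leydig-targeted levels chose the set, nothing is read from that share. In bulk libraries of this kind, fewer cells of a type and less RNA per cell cannot be told apart. Leydig and spermatid marker shares also differed between these libraries, as given above, and their part in the members' levels was not tested.

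Gm10721 differed most. It had 400.9, 484.1 and 1682 CPM in wild-type Leydig-targeted libraries (22, 13 and 10 counts), against 3.53, 5.74 and 0 CPM in wild-type sections (2, 3 and 0 counts, where the 0 allows up to 12.1 CPM). The ratio of mean CPM was 277, or 143 without wild-type Leydig-targeted replicate 3, whose level rests on 10 counts. On counts pooled over libraries it was 137, as a description. Gm10719 had 1476, 1378 and 3195 CPM in wild-type Leydig-targeted libraries, against 30.01, 118.6 and 40.4 CPM in wild-type sections, a ratio of means of 32.0. For these 2 models the lowest Leydig-targeted library lay far above the highest section. The other chromosome 9 members had ratios of 25.1 (Gm10718), 22.0 (Gm10715), 14.6 (Gm10720), 10.9 (Gm10722) and 6.39 (Gm10717). The value of Gm10718 was carried by wild-type Leydig-targeted replicate 3, at 1345 CPM beside 291.5 and 223.4 CPM in the other two, and it was 10.4 without that library. The smallest ratios included both chromosome 2 members, 6.53 for Gm10801 and 3.5 for Gm10800. Gm10800 was nevertheless the member with most counts, at 13830, 15270 and 30600 CPM in wild-type Leydig-targeted libraries, against 2619, 7343 and 7114 CPM in wild-type sections.

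**Figure D3:**
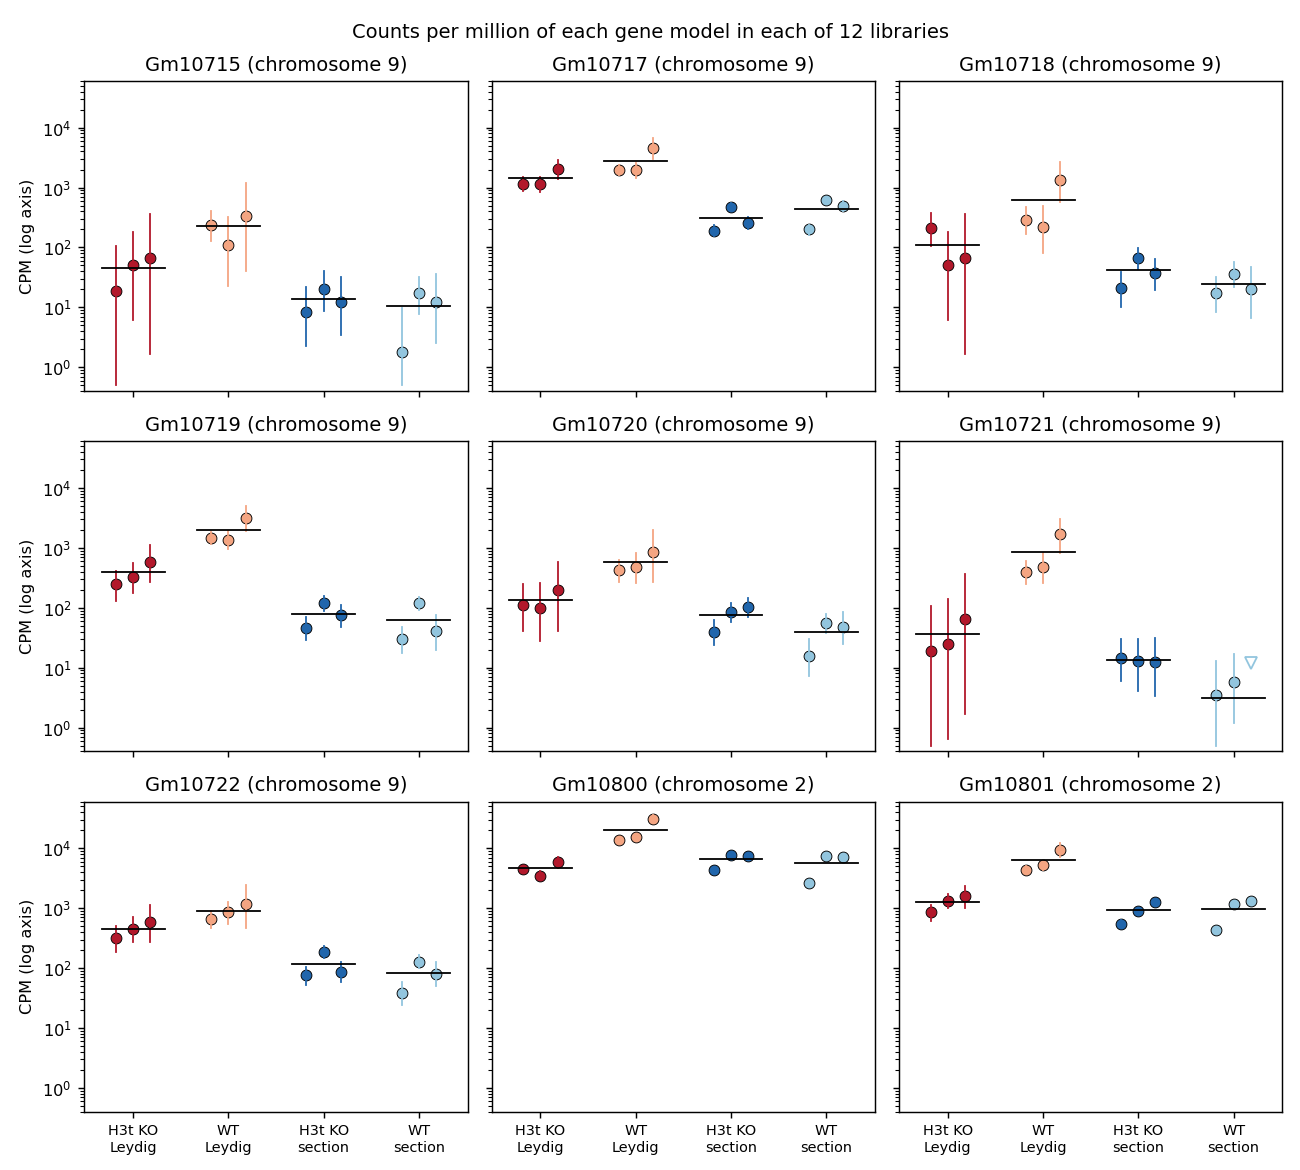
Level of each member (CPM, log axis shared by all panels) in each of the 12 libraries, one panel per member, with H3t KO Leydig-targeted, wild-type Leydig-targeted, H3t KO section and wild-type section libraries from left to right; points are libraries, bars are exact 95% counting intervals, clipped at the lower end of the axis where they run on, black lines are group means and the open triangle is the limit for a library with 0 counts. The wild-type Leydig-targeted points lie above the wild-type section points in every panel, and the gap is widest for Gm10721 (855 against 3.09 CPM on average).

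Among the members, levels per kilobase of exon kept chromosome 2 on top in every group. Mean CPM per kilobase for Gm10800 was 7020 in H3t KO Leydig-targeted libraries, 30200 in wild-type Leydig-targeted libraries, 9910 in H3t KO sections and 8630 in wild-type sections. Gm10801 was next, at 2490, 12600, 1820 and 1930 CPM per kilobase in the same groups. On chromosome 9 the per-kilobase level in wild-type Leydig-targeted libraries ran in the order Gm10722 (1380), Gm10721 (1280), Gm10719 (1120), Gm10718 (910), Gm10720 (869), Gm10717 (731) and Gm10715 (244), and neighbours in that order had overlapping libraries, except Gm10717 and Gm10715. In wild-type sections Gm10722 (127) and Gm10717 (114) were highest of the chromosome 9 members and Gm10721 was lowest (4.62). The Gm10721 model therefore stood at the low end in wild-type sections and near the top in wild-type Leydig-targeted libraries. These values assume reads spread along the exons, which the sources used here do not state.

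Within Leydig-targeted libraries, levels were lower in H3t KO than in wild type for 8 of 9 members without overlap. The exception was Gm10717, whose libraries overlapped, with 1151, 1134 and 2038 CPM in H3t KO and 1986, 1936 and 4540 CPM in wild type. In the same direction 11.2% of all tested genes had non-overlapping libraries, and again nothing is read from the members' count because the wild-type libraries chose them. Summed levels were 7471, 6979 and 11050 CPM in H3t KO Leydig-targeted libraries, against 23720, 25920 and 53140 CPM in wild-type ones, a ratio of means of 0.248 (0.342 without wild-type Leydig-targeted replicate 3). The ratio of mean CPM ran from 0.0428 for Gm10721 to 0.511 for Gm10717, with a median of 0.198. Without wild-type Leydig-targeted replicate 3 it was 0.0827 for Gm10721, and 0.419 for Gm10718 in place of 0.174.

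Gm10721 had 18.87, 25.2 and 65.75 CPM in H3t KO Leydig-targeted libraries, which is 1 count in each, against 400.9, 484.1 and 1682 CPM in wild-type ones. With 3 counts against 45, the pooled ratio was 0.0542, as a description. Gm10719 had 245.3, 327.6 and 591.8 CPM in H3t KO Leydig-targeted libraries (13, 13 and 9 counts), against 1476, 1378 and 3195 CPM in wild-type ones (81, 37 and 19 counts). Gm10801 had 849, 1335 and 1578 CPM in H3t KO Leydig-targeted libraries, against 4428, 5176 and 9417 CPM in wild-type ones. Gm10800 had 4547, 3502 and 5852 CPM in H3t KO Leydig-targeted libraries, so its highest H3t KO library lay below its lowest wild-type library at 13830 CPM. Gm10722 and Gm10717 kept the most of their wild-type level, with ratios of 0.508 and 0.511.

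The members' makeup also differed between these libraries. Of all member counts, Gm10717 took 15.4 to 18.5% in H3t KO Leydig-targeted libraries and 7.47 to 8.54% in wild-type ones. Gm10722 took 4.29 to 6.50% in H3t KO and 2.22 to 3.30% in wild type. Gm10721 went the other way, with 0.253 to 0.595% in H3t KO and 1.69 to 3.16% in wild type. Such shares do not depend on how libraries are scaled, and for these 3 members the groups did not overlap.

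Leydig-targeted against whole-section libraries in H3t KO testes is a comparison that the choice of members did not use. Here 3 members rose in Leydig-targeted libraries, all on chromosome 9, and neither chromosome 2 member passed the test. Counts were tested with edgeR's quasi-likelihood test in 1 fit of all 12 libraries, with Benjamini-Hochberg adjustment over 5182 genes and calls at an adjusted p under 0.05. Over all genes tested 1.91% were called higher and 3.53% lower, and Gm10717, Gm10719 and Gm10722 were called higher. In a fit of the 6 H3t KO libraries alone, whose filter used no wild-type library, the same 3 of 7 were called higher, beside 5.88% of 3894 genes. Of all calls in that comparison 35.1% were higher with TMM scaling and 52.6% with library size alone.

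Gm10717 had 1151, 1134 and 2038 CPM in H3t KO Leydig-targeted libraries (61, 45 and 31 counts), against 191.3, 476.8 and 257.9 CPM in H3t KO sections (91, 187 and 83 counts). The groups did not overlap, and the log2 fold change was 1.93 ± 0.49 (SE; edgeR adjusted p = 0.00574). Gm10719, at 245.3, 327.6 and 591.8 CPM in H3t KO Leydig-targeted libraries against 46.24, 119.8 and 74.59 CPM in H3t KO sections, rose by 1.91 ± 0.56 on the log2 scale (edgeR adjusted p = 0.021). Gm10722 had 320.7, 453.5 and 591.8 CPM in H3t KO Leydig-targeted libraries, against 75.67, 188.7 and 87.02 CPM in H3t KO sections, and a log2 fold change of 1.67 ± 0.52 (edgeR adjusted p = 0.034). In all 3 members the lowest Leydig-targeted library was above the highest section. Libraries without overlap in that direction were found for 8.34% of all genes tested. In the fit of the 6 H3t KO libraries the adjusted p was 2.88e-06 for Gm10717, 0.00109 for Gm10719 and 0.00229 for Gm10722.

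The other 4 members with a test were not called. In the fit of the 6 H3t KO libraries the log2 fold change of Gm10718 was 1.58 ± 0.62 (edgeR adjusted p = 0.071). In the fit of all 12 libraries that of Gm10720 was 0.52 ± 0.63 (edgeR adjusted p = 0.719). Gm10801 stood at 0.17 ± 0.48 (edgeR adjusted p = 0.871) and Gm10800 at -0.76 ± 0.45 (edgeR adjusted p = 0.338). Gm10800 had 4547, 3502 and 5852 CPM in H3t KO Leydig-targeted libraries, against 4376, 7813 and 7425 CPM in H3t KO sections. Gm10721 had 18.87, 25.2 and 65.75 CPM in H3t KO Leydig-targeted libraries (1 count each), against 14.71, 12.75 and 12.43 CPM in H3t KO sections, and Gm10715 had 18.87, 50.39 and 65.75 CPM against 8.408, 20.4 and 12.43 CPM. As a description, the median log2 fold change of the 7 members in the 6-library fit was 1.58, beside -0.15 over all genes in that fit. Leydig marker shares (3.29 to 4.01% against 1.6 to 2.14%) and Sertoli marker shares (0.454 to 0.768% against 1.02 to 1.17%; Sertoli cells nurse germ cells inside tubules) differed between the same libraries, and their part in these changes was not tested.

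The 3 calls depended on the filter and on single libraries. Without a filter on low counts the adjusted p was 0.173 for Gm10717, 0.254 for Gm10719 and 0.344 for Gm10722, and the call was lost without H3t KO section replicate 1 (0.13, 0.198 and 0.228 in that order of genes) or replicate 3 (0.0648, 0.0943 and 0.161). Without H3t KO Leydig-targeted replicate 2 or 3 it was also lost for Gm10719 (0.0637 and 0.112) and Gm10722 (0.105 and 0.108), and for Gm10722 without replicate 1 (0.054).

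**Figure D4:**
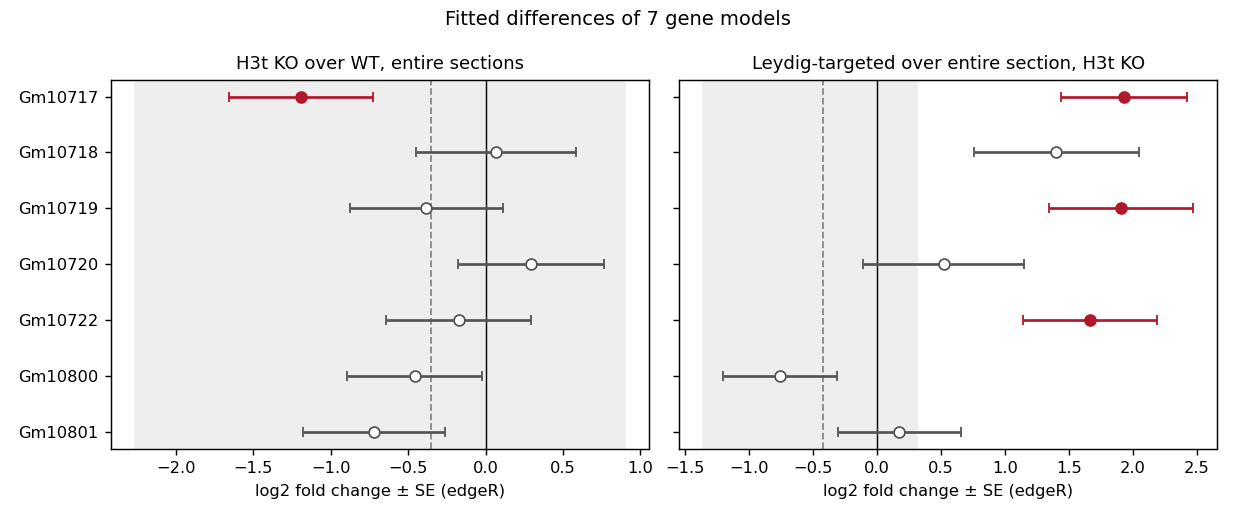
Fitted log2 fold change with its standard error for the 7 members with a test, for H3t KO against wild-type sections (left) and for Leydig-targeted against section libraries of H3t KO (right); the grey band spans the quartiles of all 5182 genes, the dashed line is their median, and red marks an edgeR adjusted p under 0.05. Gm10717, Gm10719 and Gm10722 are red and above 0 in the Leydig-targeted comparison, and Gm10717 alone is red, below 0, in the section comparison. Gm10718 is drawn at its value from the fit of 12 libraries, as a description.

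Between whole sections of H3t KO and wild-type testes, 1 member passed the test. Gm10717 fell, and the other 6 members with a test were not called. Over all genes tested 39.1% were called lower and 22.6% higher in H3t KO sections, and 61.6% in either direction, beside which 1 of 7 members was called. In a fit of the 6 section libraries 36% of 7907 genes were called lower, and Gm10717 was not (edgeR adjusted p = 0.0509). Of all section calls 36.6% were higher with TMM scaling and 52.2% with library size alone. Summed over members, H3t KO sections held 5328, 9690 and 9295 CPM and wild-type sections 3363, 9488 and 9134 CPM, which overlapped, with means of 8100 ± 2410 and 7330 ± 3440 (SD, n = 3 each).

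Gm10717 had 191.3, 476.8 and 257.9 CPM in H3t KO sections, against 199.5, 627.6 and 496.9 CPM in wild-type sections. The libraries overlapped, and the log2 fold change was -1.19 ± 0.47 (SE; edgeR adjusted p = 0.0189), beside a median of -0.35 over all genes tested. As a share of member counts, which needs no scaling between libraries, it was 2.77 to 4.92% in H3t KO sections and 5.44 to 6.61% in wild-type sections. The call was lost with library size alone (-0.51, adjusted p = 0.223), with no filter (-0.85, 0.223) and in a fit of the 6 section libraries (-0.83, 0.0509). It was also lost without H3t KO section replicate 1 (0.168) or 3 (0.0862), wild-type section replicate 2 (0.279) or 3 (0.0558), and wild-type Leydig-targeted replicate 1 (0.0829) or 3 (0.0579).

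Gm10721 was the member whose section libraries did not overlap, with 14.71, 12.75 and 12.43 CPM in H3t KO sections (7, 5 and 4 counts), against 3.53, 5.74 and 0 CPM in wild-type sections (2, 3 and 0 counts). Its pooled ratio was 3.6, given with no test. Libraries without overlap in that direction were found for 39.6% of all genes, and nothing is read from this one. Gm10801 stood at -0.72 ± 0.46 (edgeR adjusted p = 0.161), Gm10800 at -0.46 ± 0.44 (0.366) and Gm10719 at -0.38 ± 0.49 (0.511). Gm10720 stood at 0.29 ± 0.47 (edgeR adjusted p = 0.603) and Gm10722 at -0.17 ± 0.47 (edgeR adjusted p = 0.763). In the fit of the 6 section libraries Gm10718 stood at 0.41 ± 0.46 (edgeR adjusted p = 0.44). Within same-numbered pairs of sections, CPM was higher in H3t KO in all 3 pairs for 7 of 9 members (all but Gm10717 and Gm10801), as for 45.8% of all genes tested, and lower in all 3 pairs for Gm10717, as for 39% of all genes. With TMM-scaled totals only Gm10721 was higher in all 3 pairs (34.9% of all genes), and Gm10717 and Gm10801 were lower in all 3 (49.5%), so the direction of most members depends on the scaling. The median over the 7 members in the 6-library fit was -0.02, beside -0.04 over all genes in that fit. Spermatid markers held 0.00459 to 0.078% of counts in H3t KO sections and 2.63 to 5.06% in wild-type sections, and Leydig markers 1.6 to 2.14% and 0.196 to 0.417%, and their part in the members' values was not tested.

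The split of member counts between the chromosomes differed between irradiated areas. Chromosome 9 members held 27.8, 30.7 and 32.7% of member counts in H3t KO Leydig-targeted libraries, and 7.46, 10.0 and 6.29% in H3t KO sections. In wild-type testes they held 23.0, 21.1 and 24.7% in Leydig-targeted libraries and 9.13, 10.4 and 7.65% in sections. Leydig-targeted libraries and sections did not overlap in either genotype, H3t KO and wild-type sections overlapped, and H3t KO Leydig-targeted libraries all stood above wild-type ones. In CPM, chromosome 9 members summed to 2610 ± 872 in H3t KO Leydig-targeted libraries and 650 ± 291 in H3t KO sections, and to 8020 ± 4420 in wild-type Leydig-targeted libraries and 665 ± 342 in wild-type sections (SD, n = 3 each). Chromosome 2 members summed to 5890 ± 1360 in H3t KO Leydig-targeted libraries and 7450 ± 2190 in H3t KO sections, and to 26200 ± 12000 in wild-type Leydig-targeted libraries and 6660 ± 3120 in wild-type sections. Of the counts of all 9 members, Gm10800 took 50.2 to 60.9% in H3t KO Leydig-targeted libraries and 57.6 to 58.9% in wild-type ones. In sections it took 79.9 to 82.1% in H3t KO and 77.4 to 77.9% in wild type. These shares follow in part from the split between chromosomes.

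**Figure D5:**
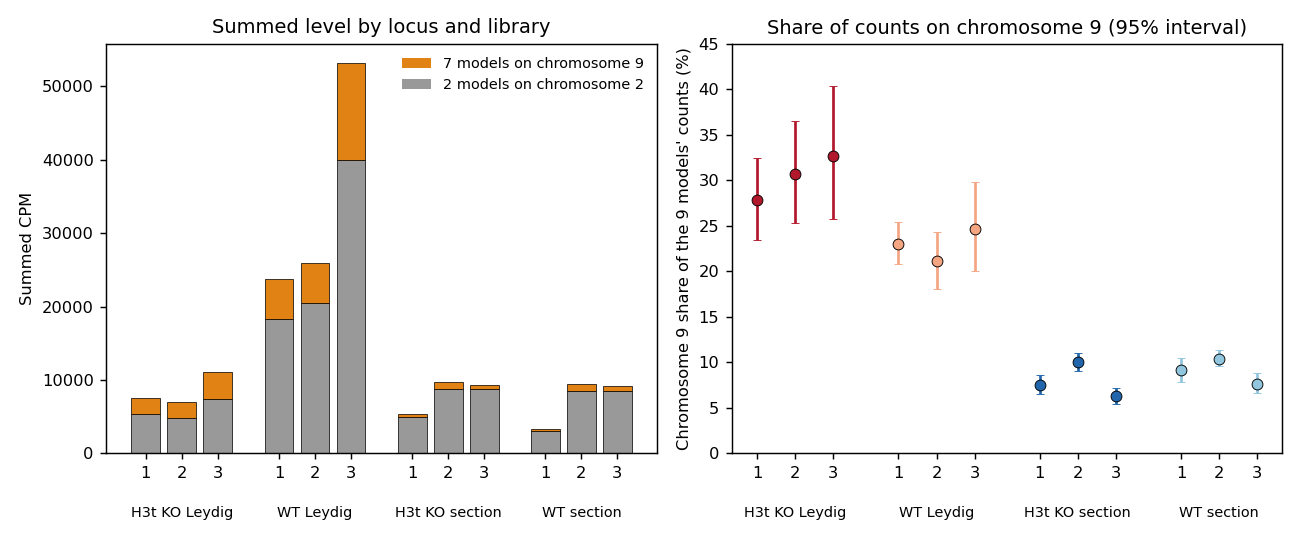
Left, summed level of the 9 members in each library (CPM, stacked bars, chromosome 9 above chromosome 2), and right, the percent of member counts on chromosome 9 with its exact 95% binomial interval, for H3t KO Leydig-targeted, wild-type Leydig-targeted, H3t KO section and wild-type section libraries from left to right. Wild-type Leydig-targeted libraries have the highest sums (23720 to 53140 CPM), while both Leydig-targeted groups have higher chromosome 9 shares (21.1 to 32.7%) than both section groups (6.29 to 10.4%).

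Levels of the members moved together over the 12 libraries, as a description of libraries that share group and depth. The 12 include the wild-type Leydig-targeted libraries that chose the set, so nothing is read from these correlations or from the ranking below. Pearson correlations of log2 CPM between pairs ran from 0.464 (Gm10722 with Gm10800) to 0.961 (Gm10715 with Gm10719). The tested gene outside the set most like the summed members was Gm21738 on chromosome 14 (chr14:19415857-19418930, minus strand; Pearson 0.953, Spearman 0.944), followed by Gm11168 on chromosome 9 (0.887 and 0.776), Gm43263 (0.872 and 0.774), Speer4e (0.852 and 0.788) and Gm31571 (0.850 and 0.788). Gm21738 and Gm11168 share 50-base words with the members, as given above, so reads may be split between them. The other 3 shared no such word and had no count in any H3t KO library. They passed the filter only through the wild-type Leydig-targeted libraries, where they are high.

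Gm21738 had 2736, 2998 and 5260 CPM in H3t KO Leydig-targeted libraries, against 11190, 12880 and 21360 CPM in wild-type Leydig-targeted ones. Its H3t KO sections held 3186, 7132 and 5171 CPM and its wild-type sections 1569, 5200 and 3567 CPM. Like Gm10800, it was not called in H3t KO Leydig-targeted against section libraries (-0.78 ± 0.45, edgeR adjusted p = 0.334) or between sections (-0.10 ± 0.44, edgeR adjusted p = 0.856). Gm11168, which lies between Gm10722 and Gm10721, had 188.7, 151.2 and 197.3 CPM in H3t KO Leydig-targeted libraries, against 619.5, 595.8 and 2018 CPM in wild-type ones, without overlap. Like Gm10717 it fell in H3t KO sections (-1.61 ± 0.47, edgeR adjusted p = 0.00141), where it had 37.83, 117.3 and 77.7 CPM, against 88.26, 212.4 and 145.4 CPM in wild-type sections.

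Other genes near the members gave little signal. Within 500 kb of a member the table held 11 genes, all on chromosome 9, and Gm11168 was the one that passed the filter. Gm17535, which lies between Gm10717 and Gm10715 and shares 85.7% of its words with members, had 10 counts over all libraries. It averaged 21.9 CPM in H3t KO Leydig-targeted and 80.6 CPM in wild-type Leydig-targeted libraries, and 0.85 CPM in H3t KO sections and 2.45 CPM in wild-type sections. The noncoding 4930433N12Rik had no count in H3t KO libraries, and averaged 68.5 CPM on 2 counts in wild-type Leydig-targeted libraries and 12.2 CPM on 15 counts in wild-type sections. Alkbh8, a tRNA-modifying enzyme, averaged 48.3 CPM in H3t KO Leydig-targeted and 12.1 CPM in wild-type Leydig-targeted libraries, and 54.5 CPM in H3t KO sections and 22.1 CPM in wild-type sections, on 6, 2, 65 and 29 counts in that order. Cwf19l2 averaged 0 CPM in H3t KO Leydig-targeted and 30.6 CPM in wild-type Leydig-targeted libraries, and 39.2 CPM in H3t KO sections and 30.1 CPM in wild-type sections.

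Genes that write, read or keep silent pericentromeric chromatin moved in both directions between sections. Of 20 listed, 9 were tested, 3 of them higher and 3 lower in H3t KO sections, beside 22.6% higher and 39.1% lower of all genes tested, with a median of -0.62. Atrx, a remodeller that loads histone H3.3 at repeats, rose by 1.72 ± 0.52 on the log2 scale (edgeR adjusted p = 0.00229). The other two higher genes were less stable: Dnmt3a, a DNA methyltransferase (1.28 ± 0.52, edgeR adjusted p = 0.0243), was lost without H3t KO section replicate 1 (0.108) or wild-type section replicate 2 (0.0654), and Cenpb, a centromere protein (1.25 ± 0.48, edgeR adjusted p = 0.0168), without H3t KO section replicate 1 (0.0826) or 3 (0.0781) or wild-type section replicate 2 (0.0851) or 3 (0.106). Kdm4d, an H3K9 demethylase, fell by 4.73 ± 0.64 (edgeR adjusted p = 1.07e-12), with 5 counts in H3t KO and 115 in wild-type sections. Trim28, a corepressor of repeats, fell by 1.55 ± 0.46 (edgeR adjusted p = 0.00155), and Cbx5, which encodes HP1 alpha, fell by 1.25 ± 0.43 (edgeR adjusted p = 0.00789; 0.105 with library size alone, 0.0601 without H3t KO section replicate 3 and 0.147 without wild-type section replicate 1). Cell makeup differed between the same sections. Spermatid markers held 0.00459 to 0.078% of counts in H3t KO and 2.63 to 5.06% in wild type. Spermatocyte markers held 0.0115 to 0.0138% and 0.301 to 0.38%, and Leydig markers 1.6 to 2.14% and 0.196 to 0.417%. Their part in these changes was not tested. In H3t KO Leydig-targeted against section libraries 1 of the 9 was higher, beside 1.91% higher and 3.53% lower of all genes tested. It was Atrx (1.97 ± 0.50, edgeR adjusted p = 0.00515), whose call was lost without H3t KO Leydig-targeted replicate 1 (0.285) or H3t KO section replicate 1 (0.0954). The list's median in that comparison was -0.99.

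Nuclear-retained noncoding RNAs were tested because satellite transcripts are also kept in the nucleus. Of 9 listed, 5 were tested, and in H3t KO sections 4 rose and 1 fell, beside 22.6% and 39.1% of all genes tested, with a median of 1.68. Meg3 rose by 2.76 ± 0.51 (edgeR adjusted p = 2.82e-07), Neat1, the paraspeckle scaffold, by 2.34 ± 0.48 (3.97e-06), and Malat1, an RNA of nuclear speckles, by 1.68 ± 0.48 (0.00104), while Kcnq1ot1, an imprinted antisense RNA, fell by 1.61 ± 0.45 (0.000825). Marker shares of germ cells and Leydig cells differed between these sections, as given above, and their part in these changes was not tested. Meg3, Neat1, Malat1 and Kcnq1ot1 were not called in H3t KO Leydig-targeted against section libraries. Snhg11 was the 1 of 5 called there (1.47 ± 0.48, edgeR adjusted p = 0.0418), beside 1.91% higher and 3.53% lower of all genes tested. Its adjusted p was 0.0508 to 0.208 without each of the 6 libraries compared. The list's median in that comparison was 1.06. Of 9 other repeat-like or structural RNA genes listed, Rn7sk and Lars2 were in the table and neither passed the filter.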

How the data were processed

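The authors deposited whole-number read counts per gene with no normalization. The submitters' processing notes name UMI-tools, Trim Galore, HISAT2, featureCounts and GRCm38, with no order or role. Versions, strand and multi-mapping settings are not stated in the sources used here. Every column of counts was mapped to a library, and no row lacked a gene name. CPM divides counts by the full library total, and counting intervals are exact 95% intervals that, like the limit of 3 counts for a 0, cover counting error only. Depth was 5947 to 54882 counts in Leydig-targeted libraries and 247539 to 566527 in sections.

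Counts were tested with edgeR 4.0.16 in R 4.3.3 (robust quasi-likelihood fit, TMM scaling, 1 coefficient per group, all 12 libraries) after the package's expression filter at a minimum count of 10, which left 5182 genes; genes with a Benjamini-Hochberg adjusted p under 0.05 were called. Each SE of a fold change is its absolute log2 value divided by the square root of the test's F statistic. The fit was tested on simulated data. DESeq2 1.42.0, other scalings, no filter, 6-library fits, a replicate block and leaving out each library were alternatives; leaving out wild-type Leydig-targeted libraries in the tested fits and member ratios, and the signs within section pairs, were chosen after seeing the data. Same-numbered sections of the 2 genotypes deviated together (correlations of 0.243, 0.132 and 0.194 across genes), so their numbers were taken as paired for the signs. The section tests given are from the fit without the block. Adding the block changed no tested member's call there, with an edgeR adjusted p of 0.0439 for Gm10717 in place of 0.0189.

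Sequences, exons and positions are from GENCODE vM21 transcripts. Words of 50 bases were matched exactly on both strands. The 5 genes most like the members were those with the highest Pearson correlation of log2 CPM. List genes named were called ones. The plan was at most 4 per list by p, but all called genes of the pericentromeric chromatin list were named. For nuclear-retained RNAs the limit of 4 was kept in each comparison. Members, lists and tests were chosen with earlier results of these data known.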

Additional observations from a re-analysis of the deposited data

Results flagged for a closer look

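Levels of Gm10721 differed between genotypes in opposite directions in the 2 kinds of library, on few counts. In Leydig-targeted libraries the ratio of mean CPM, H3t KO over wild type, was 0.0428 (0.0827 without wild-type Leydig-targeted replicate 3), with every H3t KO library below every wild-type one. In whole sections the same ratio was 4.3, with every H3t KO library above every wild-type one. The difference between the ratios was not tested, because wild-type Leydig-targeted levels chose the gene. The section difference is given with no test either, because the gene passed the filter only through those libraries. Counts were 3 in H3t KO and 45 in wild-type Leydig-targeted libraries, and 16 in H3t KO and 5 in wild-type sections.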

How the results depend on the processing

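Depth limits these results, since 4 of 9 members had under 15 counts over the H3t KO Leydig-targeted libraries, and reads of near-identical copies may be split between members. In H3t KO Leydig-targeted against section libraries the median of all genes moved between -0.75 and -0.04 over the settings. In sections it was -0.35 with TMM and 0.23 with library size alone. Gm10715 and Gm10721 could not be tested in the 6-library fits, so their values below support nothing. Values of Gm10718 below come from fits with wild-type Leydig-targeted libraries and are a description. The cause of the changes below was not tested.

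For H3t KO Leydig-targeted against section libraries, dropping the filter gave 1.46 for Gm10717, 1.45 for Gm10719, 1.20 for Gm10722 (none called) and -0.30 for Gm10801, which turned its direction. With the replicate block, whose numbers did not pair in this comparison (correlations of 0.056, 0.008 and 0.026), Gm10722 stood at 1.75 (edgeR adjusted p = 0.0512), with 70 genes called higher and 135 lower. Genes called higher numbered 99, but 160 with relative log expression factors, 195 with library size alone, 180 with DESeq2, 54 with no filter and 229 with the 6 libraries compared. Leaving out 1 library gave 44 to 115 higher and 63 to 489 lower calls, against 183 with all libraries. The same exercise gave 1.49 to 2.35 for Gm10717, 1.42 to 2.29 for Gm10719, 1.31 to 2.15 for Gm10722 and -0.21 to 0.54 for Gm10801.

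For H3t KO against wild-type sections, library size alone gave -0.51 for Gm10717 (not called) and 1.72 for Gm10721 (given with no test). It turned Gm10715 to 0.43, Gm10719 to 0.30, Gm10722 to 0.50 and Gm10800 to 0.20. With no filter the values were -0.85 for Gm10717, 0.14 for Gm10715 and 0.16 for Gm10722, and with the 6 section libraries -0.83 for Gm10717 and 0.19 for Gm10722. Genes called higher numbered 1170, but 1861 with library size alone, 2416 with no filter and 2390 with the 6 libraries, and lower calls went to 4639 with no filter against 2024. Leaving out 1 library gave -1.60 to -0.62 for Gm10717, -0.53 to 0.91 for Gm10715, -0.41 to 0.72 for Gm10718, -0.75 to 0.80 for Gm10719, -0.018 to 0.98 for Gm10720 and -0.65 to 0.61 for Gm10722.

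Mean summed CPM in wild-type sections was 11500 with TMM-scaled totals, against 7330. In wild-type Leydig-targeted libraries it was 25800, against 34300, so the gap between these groups narrowed. The H3t KO over wild-type Leydig-targeted ratio of summed CPM ran from 0.211 to 0.342 without 1 library. Shared words came to 59.2% at 36 bases and 35.9% at 75 bases. Over all alternatives, 334 values kept their direction and side of the threshold, or moved by less than the spread or, for numbers of calls, a fixed factor. Another 26 moved by more, 26 turned direction, 24 lost a member's call and 1 gained one (Gm10721, given with no test). Members that were not called and stayed so are among the 334, so that total says little about the calls.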
